A study of Mus musculus with 6 samples.

Results

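Expression of the neurexin, neuroligin, SynCAM and NCAM genes was compared between activated and quiescent neural stem cells sorted from the ventricular-subventricular zone of adult mice, the germinal layer along the lateral ventricles of the brain. The set was defined by gene family and comprised 9 genes: the neurexins Nrxn2 and Nrxn3, the neuroligins Nlgn1, Nlgn2 and Nlgn3, the synaptic cell adhesion molecules Cadm1 and Cadm2, and the neural cell adhesion molecules Ncam1 and Ncam2. A probe set, the group of short oligonucleotides that together give 1 value for a transcript, was used where its annotation named exactly 1 gene. Of the 9 genes, 8 had such probe sets, 28 in all, out of 18193 genes and 34945 probe sets. Cadm2 had none and was not analysed here.

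Both populations were sorted from adult brains of mice carrying GFP under the GFAP promoter, and both were GFP-positive, CD133-positive and CD24-negative. For activated cells the gate also required EGF receptor on the surface. There were 3 one-colour arrays per population, described as biological replicates. The reporter marks cells in which the GFAP promoter is active, and CD133 and the EGF receptor are surface proteins, so each population was defined by a gate and not by a lineage. The sources used here do not give the age in days, the sex or the number of animals behind an array.

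Neurexins are presynaptic receptors that bind neuroligins on the opposite membrane, and the pair aligns transmitter release sites with postsynaptic receptors. SynCAMs, encoded by the Cadm genes, and NCAMs are immunoglobulin superfamily proteins that bind copies of themselves or related proteins on neighbouring cells. All of these families are also found outside synapses, including on glia. NCAM carrying polysialic acid, a long sugar chain that lowers adhesion, is a marker of the migrating neuroblasts that this zone produces.

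Values are log2 MAS5 signals, with every array scaled to the same trimmed mean, and each difference is the activated minus the quiescent mean. Errors of differences are standard errors from limma, and adjusted p-values are Benjamini-Hochberg values over all tested features, with a call at an adjusted p under 0.05. Each gene was represented by its brightest probe set in 1 fit over 11575 genes, and all single-gene probe sets were fitted separately (22607 tested). The background of an array was the 95th percentile of its 27 probe sets for bacterial transcripts. The number of arrays limits the precision of all values. In RNA of sorted populations, fewer cells of a type and less RNA per cell cannot be told apart.

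Of the 8 genes, 3 were lower in activated cells (Ncam2, Cadm1 and Nrxn2), 0 were higher, and 5 did not pass the test in limma (Nrxn3, Nlgn1, Nlgn2, Nlgn3 and Ncam1). At an unadjusted p under 0.05, 4 genes were lower and 0 higher, and the share of all genes at that threshold was not taken. Over all 11575 genes, 34.9% were called at an adjusted p under 0.05, 17.6% lower and 17.3% higher. All activated arrays lay below all quiescent arrays for 3 of the 8 genes and above for 1, against 25.5% and 25.1% of all genes, 50.7% together. The median difference of the 8 genes was -0.80, against 0.01 for all tested genes. On the probe set level 12 of 26 tested probe sets were called lower and 0 higher, where 31.9% of all tested probe sets were called, 16.3% lower and 15.6% higher. At an unadjusted p under 0.05, 3 of the 26 were higher, and the share of all probe sets at that threshold was not taken. For 14 of the 28 probe sets all activated arrays lay below all quiescent arrays, for 4 they lay above, and for 10 the groups overlapped. Among all tested probe sets the activated arrays lay below in 24.5% and above in 23.6%, 48.1% together. Ncam2 reached the signal filter, a mean log2 signal of 6.02 over the 6 arrays, only through its quiescent arrays.

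**Figure D1:**
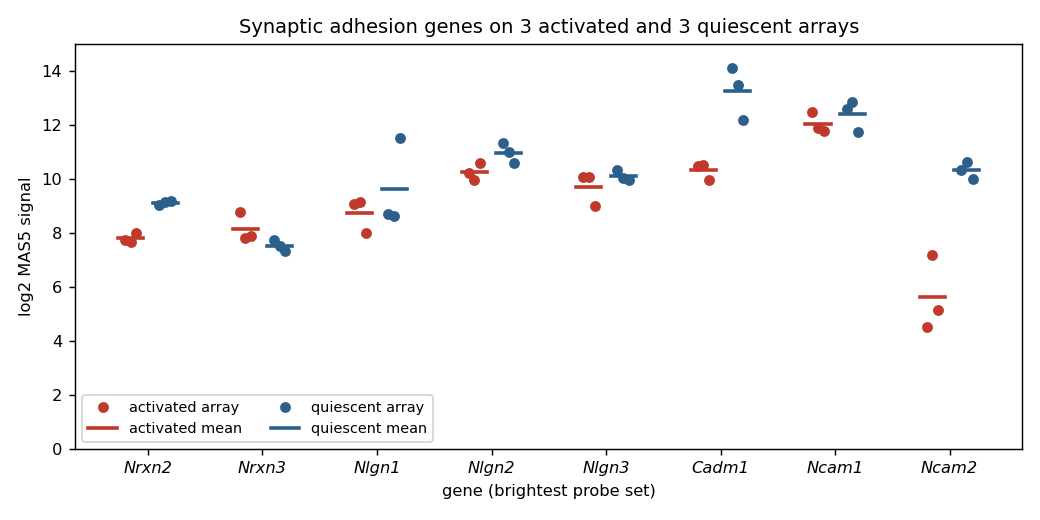
Log2 MAS5 signal of the brightest probe set of each of 8 synaptic adhesion genes. Points are single arrays and bars group means (n = 3 activated, left, and 3 quiescent, right). The groups separate with activated arrays lower for Nrxn2, Cadm1 and Ncam2, and with activated arrays higher for Nrxn3. Levels of different genes are not comparable, because probe sets differ in efficiency.

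Some properties of the arrays moved with the groups. The hybridisation controls averaged 13.7 ± 0.05 on activated and 14.3 ± 0.53 on quiescent arrays (SD, n = 3 each), and the background 4.60 ± 0.07 on activated and 5.67 ± 0.37 on quiescent arrays. Quiescent array 1 stood apart in the hybridisation controls at 14.94, while the other two quiescent arrays read 14.01 and 14.04, still above the activated arrays at 13.65 to 13.73. The 3′ minus 5′ signal of Gapdh, which grows as RNA is shortened, was 1.37 ± 0.17 on activated and 2.05 ± 0.52 on quiescent arrays. Each of these 3 measures had p = 0.1 in a two-sided exact permutation test, and 3 against 3 arrays can give no smaller value. The same measure of actin was 0.07 ± 0.16 on activated and -0.05 ± 0.16 on quiescent arrays (exact permutation p = 0.4), without the shift seen for Gapdh. The sort marker Egfr was 2.11 ± 0.24 higher in activated cells (limma adjusted p = 0.000153) and Gfap fell by 4.18 ± 0.58 (adjusted p = 0.000444), while the reporter was required in both sorts. For Cd24a the difference was 4.13 ± 0.50 (adjusted p = 0.000223), while CD24 protein was excluded in both sorts, and Prom1, the CD133 gene, fell by 1.22 ± 0.32 (adjusted p = 0.0133). Of 14 stem cell and astrocyte genes 10 fell and 2 rose (0 rose without activated array 2, activated array 3 or quiescent array 1), with differences of -4.84 for Aqp4 and -5.65 for Gjb6, and their summed linear signal was 51536 to 60474 on activated and 145245 to 214630 on quiescent arrays. Meanwhile all 8 tested genes of the activated stem cell list were higher, Top2a by 5.98 and Mcm2 by 4.50, and their sum was 60816 to 67878 on activated and 7921 to 14186 on quiescent arrays.

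Markers of other cells moved too. Of 12 mature oligodendrocyte genes with a probe set 11 were tested and all 11 fell, with differences of -6.69 for Aspa and -5.87 for Mag, and the summed linear signal of the list was 2463 to 6472 on activated and 22733 to 89153 on quiescent arrays. Among the 12, Gjb1 was at background on all activated arrays. Of 13 neuroblast genes 8 rose and 0 fell, with Dlx6 at least 6.30-fold higher and Cd24a as above, and the sum was 43021 to 52238 on activated and 6957 to 12455 on quiescent arrays. The sum of 12 mature neuron genes was 3420 to 5837 on activated and 2716 to 3678 on quiescent arrays, and 2 of 7 tested genes were higher, Rbfox3 (4.82) and Syn1 (4.03). For Syn1 the groups overlapped. Rbfox3 did not pass without activated array 2 (difference 0.47, adjusted p = 0.640) or activated array 3 (difference 0.22, adjusted p = 0.842). The brightest probe set was chosen anew in each fit, and in those fits it was a different Rbfox3 probe set, with a much smaller difference. Their values therefore do not show that the Rbfox3 call rested on a single array. The Syn1 call was lost without quiescent array 1 (adjusted p = 0.135) or quiescent array 2 (adjusted p = 0.147). Without any single array at most 1 mature neuron gene was higher, and 0 without activated array 3. Of 4 tested endothelial genes 3 fell, with a difference of -4.23 for Cldn5 and Tek at least 11.4-fold lower, and the sum of 10 was 196 to 294 on activated and 1502 to 4028 on quiescent arrays. All 5 tested pericyte genes fell, with differences of -4.15 for Vtn and -4.10 for Pdgfrb, and the sum of 10 was 370 to 760 on activated and 5202 to 9350 on quiescent arrays. The pericyte genes called lower were 3 of 6 tested without activated array 3, 3 of 4 without quiescent array 1, and 2 of 5 when scaled to the hybridisation controls. Of 5 tested ependymal genes 4 fell, such as Ccdc153 (-3.59), and Dnah11 was 4.10 higher, the sum of 11 genes being 1946 to 3041 on activated and 2275 to 5862 on quiescent arrays, and 2 of 4 tested fell without quiescent array 1 or without quiescent array 2. Oligodendrocyte precursor genes had 0 of 4 tested called (limma), or 1 (C1ql1, adjusted p = 0.0528) at an unadjusted p under 0.05, and sums of 546 to 1190 on activated and 621 to 1682 on quiescent arrays. Of these precursor genes 1 of 3 tested was called lower without activated array 1 and likewise without quiescent array 3, where 1 was called higher. Microglial genes summed to 160 to 211 on activated and 443 to 757 on quiescent arrays, with Aif1, Tmem119 and C1qa at background on all 6 arrays. Only 1 microglial gene was tested, and it was not called. Genes that are low in 1 group, such as Mag, Tek and Vtn, reached the signal filter only through the other group, so the counts of tested genes favour genes that differ. The part of these cells in the differences of the adhesion genes was not tested.

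Nrxn2 was lower in activated cells, and Nrxn3 had higher values that did not pass the test. For Nrxn2 the brightest probe set, 1435907_at, read 7.72, 7.67 and 7.995 on activated arrays 1 to 3, against 9.04, 9.13 and 9.18 on quiescent arrays. The groups did not overlap and both were tight, with SDs of 0.17 for activated and 0.07 for quiescent arrays. Nrxn2 fell by 1.32 ± 0.39 (95% interval -2.18 to -0.47, adjusted p = 0.0226), a 2.50-fold lower signal in activated cells. The second Nrxn2 probe set, 1455499_at, read 7.56, 7.52 and 7.02 on activated and 7.77, 7.44 and 8.09 on quiescent arrays, and these overlapped (difference -0.40 ± 0.48, adjusted p = 0.553). The Nrxn2 call was lost in 5 of 16 alternatives, which were the mean of the probe sets (-0.86, adjusted p = 0.0671), scaling to the hybridisation controls (-0.68, adjusted p = 0.332), and the fits without activated array 1 (adjusted p = 0.0655), without activated array 2 (adjusted p = 0.0717) or without quiescent array 2 (adjusted p = 0.0543).

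Nrxn3 was the only one of the 8 genes whose probe sets all had positive differences. Its brightest probe set, 1456137_at, read 8.79, 7.83 and 7.87 on activated arrays, against 7.75, 7.499 and 7.33 on quiescent arrays, and activated array 1 stood highest. The groups were separate by a narrow margin, and the difference of 0.64 ± 0.48 (95% interval -0.42 to 1.69) did not pass (adjusted p = 0.320). The largest Nrxn3 difference was that of 1439629_at, with 9.07, 6.79 and 7.76 on activated and 5.75, 4.60 and 6.93 on quiescent arrays (2.12 ± 0.78, adjusted p = 0.0618). Here quiescent array 3 lay above activated array 2, and only 1 of the 3 quiescent arrays exceeded its background. Probe set 1438193_at read 8.11, 8.39 and 7.49 on activated and 6.72, 6.84 and 6.41 on quiescent arrays (1.34 ± 0.51, adjusted p = 0.0683), and 1432931_at read 7.83, 7.78 and 6.71 on activated and 6.01, 6.45 and 4.57 on quiescent arrays (1.76 ± 0.70, adjusted p = 0.0766). The last, 1433788_at, differed by 0.71 ± 0.49 (adjusted p = 0.285). When the 5 probe sets were averaged first, Nrxn3 was 1.31 ± 0.42 higher in activated cells and passed (adjusted p = 0.0361). Unequal differences among the 5 probe sets were not detected (limma diffSplice adjusted p = 0.581). The neuroblast list, given above, was higher in the same cells.

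The RefSeq promoter table (build GRCm38.p6) lists 3 starts for Nrxn3, and the window before the start with the most CpG dinucleotides is shown because Nrxn3 alone had higher values in every probe set. It is 250 bases upstream of that start on the plus strand, chr12:89812233-89812482, printed 5′ to 3′:
Nrxn3: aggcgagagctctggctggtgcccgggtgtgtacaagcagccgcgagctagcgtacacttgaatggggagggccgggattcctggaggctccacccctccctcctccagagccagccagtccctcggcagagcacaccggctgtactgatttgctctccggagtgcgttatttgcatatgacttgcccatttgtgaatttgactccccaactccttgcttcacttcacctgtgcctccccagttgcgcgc
This window had a GC content of 60% and 12 CpG dinucleotides, while the windows before the other starts had 2 and 5, and the median of all 32851 windows was 6. The motifs reported here, searched on both strands, were GGGCGG, the GC box, and the nuclear factor I palindrome, TTGGC and GCCAA with 5 bases of any kind between them. No overlap between motifs was required or excluded. None of the 3 Nrxn3 windows held these letters. GGGCGG occurs in 32.7% of all windows of this length and the palindrome in 0.0365%.

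The 3 neuroligins did not pass the test at the gene level. Nlgn2, the neuroligin of inhibitory synapses, read 10.21, 9.95 and 10.60 on activated and 11.32, 10.99 and 10.58 on quiescent arrays with 1455143_at. Activated array 3 and quiescent array 3 were nearly equal, and the difference was -0.71 ± 0.31 (95% interval -1.41 to -0.02, adjusted p = 0.101). Without quiescent array 3 it was -0.90 and passed (adjusted p = 0.0362). The second Nlgn2 probe set, 1460013_at, was below the signal filter, with 1 of 3 quiescent arrays above background, and read 7.22, 6.43 and 5.78 on activated and 6.03, 3.21 and 6.94 on quiescent arrays. With both probe sets averaged the sign turned (0.18, adjusted p = 0.789).

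Nlgn3, which is found at both excitatory and inhibitory synapses and is also expressed by glia, read 10.07, 10.08 and 8.99 on activated and 10.33, 10.03 and 9.94 on quiescent arrays with 1456384_at. The groups overlapped in all 3 Nlgn3 probe sets, and the differences were -0.39 ± 0.37, -0.18 ± 0.33 and 0.34 ± 0.66 (adjusted p = 0.448, 0.714 and 0.722 in the limma probe set fit). The gene-level interval was -1.21 to 0.43, so a fold change of up to 2.31 toward lower signal lies within it. Scaled to the hybridisation controls the value was 0.26 (adjusted p = 0.690).

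Nlgn1, the neuroligin of excitatory synapses, gave different pictures with its 2 probe sets. The brighter, 1437160_at, read 9.07, 9.14 and 7.99 on activated and 8.69, 8.64 and 11.52 on quiescent arrays, so that quiescent array 3 alone stood high (difference -0.88 ± 0.71, adjusted p = 0.357). Without that array the difference was 0.07 (adjusted p = 0.914). The other, 1421648_at, read 7.999, 0.03 and 4.13 on activated and 10.68, 11.75 and 8.97 on quiescent arrays, and only activated array 1 exceeded its background. With an activated mean of 4.05 it reached the signal filter only through its quiescent arrays, and the size of its difference rests on values at background. It fell by 6.41 ± 1.57 (95% interval -9.89 to -2.93, adjusted p = 0.0110), a wide interval as the activated arrays ranged from 0.03 to 7.999. This call was lost without quiescent array 2 (adjusted p = 0.0532). Whether the 2 Nlgn1 differences are unequal could not be settled (diffSplice adjusted p = 0.181), and the mean of the probe sets fell by 3.65 ± 0.81 (adjusted p = 0.00653).

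Cadm1 was lower in activated cells in every probe set. Cadm1 encodes SynCAM 1, an adhesion protein that promotes synapse formation and is also made by astrocytes. The brightest probe set, 1431611_a_at, read 10.48, 10.53 and 9.97 on activated arrays, against 14.11, 13.47 and 12.17 on quiescent arrays. All activated arrays were lower, and Cadm1 fell by 2.92 ± 0.44 (95% interval -3.89 to -1.96, adjusted p = 0.000659), a 7.58-fold lower signal. Probe set 1417376_a_at was the tightest, with 10.55, 10.22 and 10.10 on activated and 12.88, 12.90 and 12.96 on quiescent arrays (-2.63 ± 0.25, adjusted p = 6.98e-05). Probe sets 1417378_at and 1417377_at differed by -2.26 ± 0.25 and -2.54 ± 0.28 (adjusted p = 0.000137 and 0.000144 in the limma probe set fit). Thus 4 of 4 probe sets were called lower, with differences between -2.92 and -2.26, and unequal differences were not detected among them (diffSplice adjusted p = 0.831). The gene was called in all 16 alternatives, with differences from -3.46 to -2.28. In the same comparison 10 of 14 stem cell and astrocyte genes fell and 2 rose, and the mature oligodendrocyte, endothelial and pericyte lists fell. The part of any of these cells in the Cadm1 difference was not tested.

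**Figure D2:**
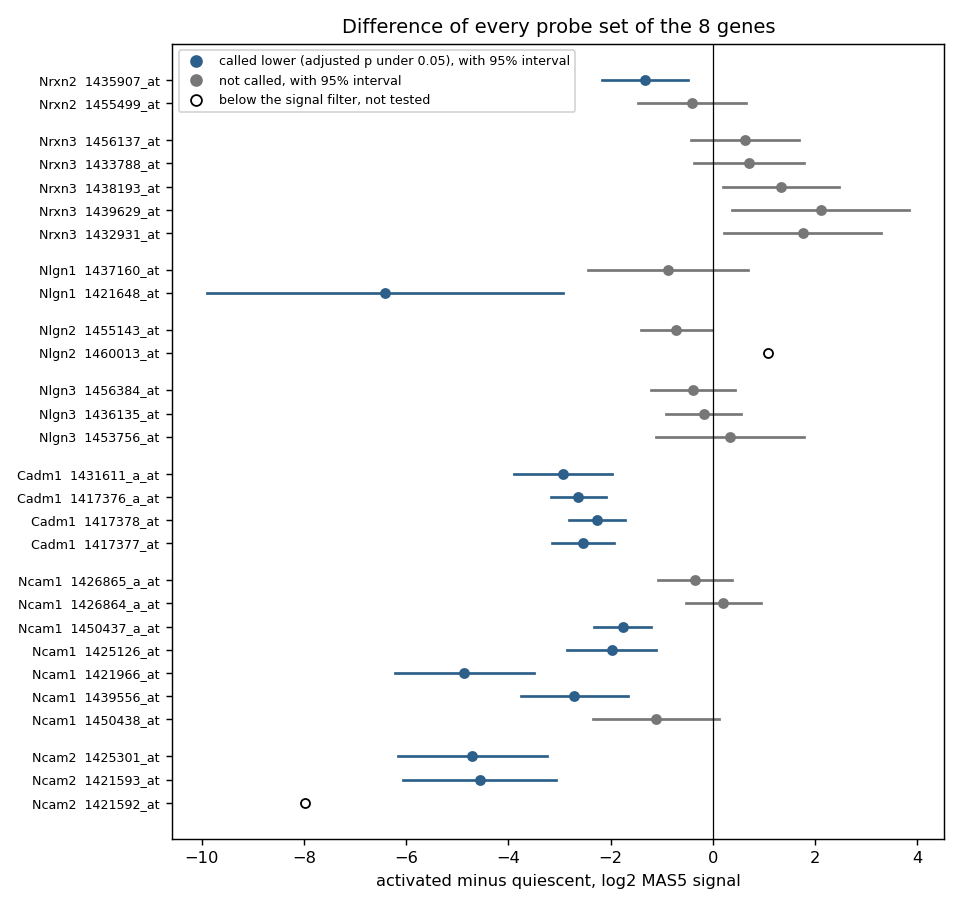
Activated minus quiescent difference of the log2 MAS5 signal for all 28 probe sets, with 95% intervals from limma (n = 3 arrays per group). Blue marks the 12 probe sets called lower, grey the 14 not called and open circles the 2 under the signal filter. All 4 Cadm1 intervals lie below 0, and the 7 Ncam1 probe sets spread from -4.86 to 0.21.

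Ncam2, also called OCAM, is an NCAM relative known from olfactory sensory axons. Its brightest probe set, 1425301_at, read 4.52, 7.19 and 5.14 on activated arrays, against 10.35, 10.62 and 9.99 on quiescent arrays. Activated array 1 was at background and the other two above it. Ncam2 fell by 4.71 ± 0.66 (95% interval -6.17 to -3.25, adjusted p = 0.000472), a 26.1-fold lower signal and the largest difference of the 8 genes. Probe set 1421593_at read 4.99, 3.52 and 5.28 on activated and 8.72, 8.74 and 10.02 on quiescent arrays (-4.56 ± 0.67, adjusted p = 0.000692). The third, 1421592_at, read 1.23, 0.64 and 1.51 on activated and 8.63, 9.10 and 9.58 on quiescent arrays. It was below the signal filter and so not tested, and with all activated arrays at background its signal was at least 22.8-fold lower in activated cells. Ncam2 was called in all 16 alternatives, with differences from -5.75 to -4.06.

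The sequence before the annotated Ncam2 start is shown for the gene with the greatest fall. It is 250 bases on the plus strand, chr16:81200447-81200696 (RefSeq, GRCm38.p6), 5′ to 3′, with capitals marking GC boxes, here read on the opposite strand:
Ncam2: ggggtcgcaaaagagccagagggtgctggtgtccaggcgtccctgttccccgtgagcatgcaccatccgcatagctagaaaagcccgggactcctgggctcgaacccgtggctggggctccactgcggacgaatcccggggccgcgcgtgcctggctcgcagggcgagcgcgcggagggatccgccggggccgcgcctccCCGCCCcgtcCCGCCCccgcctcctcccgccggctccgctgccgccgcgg
It held 2 GC boxes that do not overlap each other and no nuclear factor I palindrome. Its GC content was 75.2% and it had 32 CpG dinucleotides, with fewer CpG in 95.4% of all windows. Of the members, 5 had windows in the table (8 windows), and Cadm1, Ncam1, Nrxn2 and Nlgn3 had none.

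Ncam1, the classical NCAM, had the most probe sets, and their differences were unequal by diffSplice. Its 2 brightest probe sets did not separate the groups: 1426865_a_at read 12.47, 11.90 and 11.79 on activated and 12.59, 12.86 and 11.74 on quiescent arrays, and 1426864_a_at 11.39, 11.91 and 11.23 on activated and 10.79, 11.88 and 11.23 on quiescent arrays. Their differences were -0.34 ± 0.33 and 0.21 ± 0.33 (adjusted p = 0.450 and 0.659 in the limma probe set fit), with 95% intervals of -1.07 to 0.38 and -0.52 to 0.94. The gene-level value is that of the first (adjusted p = 0.440), and scaled to the hybridisation controls its sign turned (0.30, adjusted p = 0.571).

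In the other 5 Ncam1 probe sets every activated array lay below every quiescent array. Probe set 1421966_at read 7.16, 5.74 and 7.14 on activated and 12.47, 11.996 and 10.17 on quiescent arrays, and fell by 4.86 ± 0.62 (adjusted p = 0.000290). Probe set 1439556_at fell by 2.71 ± 0.48 (adjusted p = 0.00183), 1425126_at by 1.97 ± 0.40 (adjusted p = 0.00381) and 1450437_a_at by 1.76 ± 0.25 (adjusted p = 0.000602). For 1450437_a_at the arrays were closest together, at 10.25, 9.998 and 10.31 on activated and 11.99, 11.91 and 11.94 on quiescent arrays. Probe set 1450438_at had a difference of -1.11 ± 0.56 and did not pass (adjusted p = 0.154).

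The inequality was tested directly. In limma diffSplice, which asks whether the probe sets of a gene share 1 difference, Ncam1 passed (F = 13.5, adjusted p = 0.000526), and it was the only member among the 7 that could be tested. Of all 6055 genes with several tested probe sets 2.92% passed. In simulated data 20.3% of diffSplice calls were false, more than its threshold allows, while 59% of the 100 genes made unequal were recovered. A within-array comparison of each probe set with the mean of the others called 0 genes in limma (1692 at an unadjusted p under 0.05). In the simulated data it recovered 0 of the 100. The simulated noise was drawn separately for each probe set, so shifts that probe sets of a gene share on an array were absent. How well either method does on these data is therefore not known, and inequality in Ncam1 was called by diffSplice only. By the within-array comparison 1421966_at differed from the mean of the other Ncam1 probe sets by -3.58 ± 0.67 (adjusted p = 0.117) and 1426864_a_at by 2.34 ± 0.50 (adjusted p = 0.127). The diffSplice call for Ncam1 held in all 14 alternatives, with adjusted p from 9.53e-06 to 0.0499. The alternative without a variance trend could not change it, because diffSplice was run without that trend throughout. Which transcript forms the probe sets read was not determined. Averaged over its 7 probe sets, Ncam1 fell by 1.79 ± 0.27 (adjusted p = 0.000726).

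**Figure D3:**
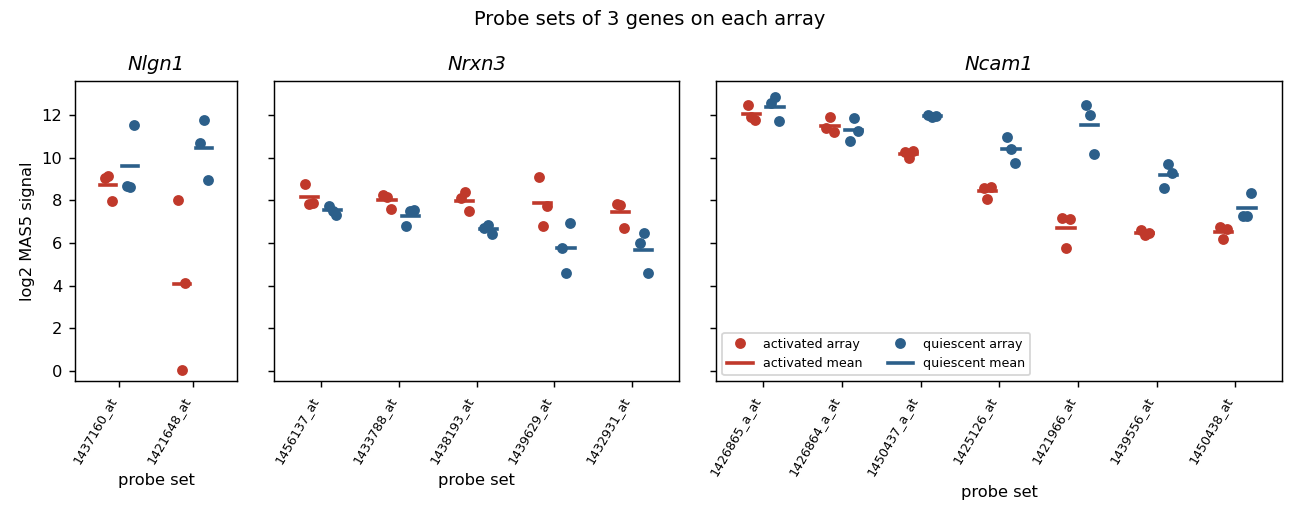
Log2 MAS5 signal of each array (points) and group means (bars) for the probe sets of Nlgn1, Nrxn3 and Ncam1, with activated left and quiescent right. Of the 7 Ncam1 probe sets 5 separate the groups and the 2 brightest do not, and all 5 Nrxn3 means are higher in activated cells.

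Genes whose profile over the 6 arrays lay closest to that of a member were named by the smallest distance between standardised profiles. Closest to Ncam2 were Fgf2 (Pearson r = 0.996) and Stard8 (r = 0.995), closest to Cadm1 were Asrgl1 and Asph (both r above 0.99), and closest to Nrxn2 were Amot and Lsamp, the last itself an adhesion protein of neurons. For Ncam1, by its brightest probe set, the closest was Dlg3 (r = 0.996), and for Nrxn3 Usp47 (r = 0.972). For the neuroligins they were Shisa5 for Nlgn1 (r = 0.984), Tex44 for Nlgn2 (r = 0.994) and Atp8b2 for Nlgn3 (r = 0.987). These correlations are a description over 6 arrays that share 2 groups, among 11575 genes.

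The sugar chain and signalling partners of NCAM were examined as a list. Of 12 tested genes 8 fell and 1 rose, with a median difference of -1.76, against 17.6% and 17.3% of all tested genes. The gene that rose was St8sia2, a polysialyltransferase that builds polysialic acid on NCAM. It was named after its values were seen. St8sia2 read 8.84, 7.66 and 7.61 on activated and 5.15, 5.66 and 3.66 on quiescent arrays, of which 1 exceeded background, and was 3.22 ± 0.71 higher in activated cells (adjusted p = 0.00605). With a quiescent mean of 4.82 it reached the signal filter only through its activated arrays, and it was too dim to be tested without activated array 1. The second such enzyme, St8sia4, had a difference of 1.17 ± 0.69 and did not pass (adjusted p = 0.205). Among the genes that fell were the FGF receptors Fgfr2 (-3.10 ± 0.30, adjusted p = 7.83e-05) and Fgfr1 (-2.42 ± 0.33, adjusted p = 0.000410), which NCAM can bind, and the prion protein gene Prnp (-2.83 ± 0.24, adjusted p = 4.17e-05). With scaling to the hybridisation controls 2 rose and 4 fell, and without quiescent array 2 there were 2 that rose and 6 that fell.

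Extracellular partners of neurexins and neuroligins were lower or did not pass. Of 14 tested genes 7 fell and 0 rose in limma, with a median of -0.997, against 17.6% and 17.3% of all tested genes. Mdga2, which binds neuroligins and blocks their contact with neurexins, read 7.32, 5.11 and 6.37 on activated and 11.71, 10.22 and 10.23 on quiescent arrays and fell by 4.45 ± 0.63 (adjusted p = 0.000479). Sparcl1, or hevin, an astrocyte protein that bridges neurexin and neuroligin, fell by 3.30 ± 0.35 (adjusted p = 0.000105), and Sparc, which opposes hevin, fell by 3.93 ± 0.31 (adjusted p = 3.41e-05). The other genes that fell, named after their values were seen, were C1ql3 (-2.27), Dag1, which encodes the neurexin ligand dystroglycan (-1.37), the calsyntenin gene Clstn1 (-1.28) and the latrophilin gene Adgrl1 (-1.17). Scaled to the hybridisation controls, 1 rose and 4 fell, and without quiescent array 3 there was 1 that rose.

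Of the other trans-synaptic adhesion genes 8 of 21 tested were lower and 4 higher, with a median of -0.84. Over all genes 17.6% were lower and 17.3% higher, so the higher share was near that of all genes. The receptor phosphatase Ptprd fell by 3.25 ± 0.41 (adjusted p = 0.000253), Flrt1 fell by 3.23 ± 0.32 (adjusted p = 8.48e-05) and the teneurin Tenm3 fell by 2.90 ± 0.37 (adjusted p = 0.000273). Cadm4, a SynCAM relative, fell by 0.91 ± 0.29 (adjusted p = 0.0325), while Cadm3 had a difference of 0.21 (adjusted p = 0.647). Higher in activated cells were Lrfn4 (1.86 ± 0.43, adjusted p = 0.00719), Ntng2, a netrin G protein (4.67 ± 0.91, adjusted p = 0.00300), Igsf9 (3.82 ± 0.95, adjusted p = 0.0105) and Slitrk1 (at least 3.63-fold, adjusted p = 0.0395). The last 3 were named after their values were seen, and for each at most 1 quiescent array exceeded background. The Slitrk1 call was lost in 5 of 14 alternatives. All 3 reached the signal filter only through their activated arrays. Without quiescent array 2 only 3 fell, without activated array 3 only 5 fell, and without activated array 2 or 3 only 2 rose. Scaled to the hybridisation controls, 5 rose and 3 fell.

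Inside the cell, 5 of 27 tested scaffold genes were lower and 4 higher, shares near the 17.6% and 17.3% over all genes. Without activated array 1 there were 3 lower, and when scaled to the hybridisation controls 2 were lower and 6 higher. The median was -0.32, and 0.32 with that scaling. Dlgap1, a protein of the postsynaptic density, fell by 3.88 ± 0.35 (adjusted p = 5.35e-05), and the band 4.1 proteins Epb41l3 and Epb41l2, of which the first binds SynCAM 1, differed by -3.14 ± 0.57 (adjusted p = 0.00195) and -1.39 ± 0.32 (adjusted p = 0.00719). The other genes that fell were Dlg1 and Pick1, with differences of -1.22 and -1.13. Higher were Mpp3 (1.79 ± 0.39, adjusted p = 0.00562), Lin7a (3.25 ± 0.75, adjusted p = 0.00768), Homer2 (1.96) and Dlgap3 (1.79). Dlg1, Pick1, Lin7a, Homer2 and Dlgap3 were named after their values were seen. The calls of Homer2 and Dlgap3 were lost without 1 of the arrays (Homer2 without activated array 2, adjusted p = 0.115, or quiescent array 3, adjusted p = 0.318, and Dlgap3 without activated array 3, adjusted p = 0.0524). With its probe sets averaged Mpp3 was not called and its sign turned (-0.18, adjusted p = 0.867), and Epb41l2 was not called when scaled to the hybridisation controls (adjusted p = 0.111). Cask, the kinase-like scaffold bound by neurexins, differed by 0.34 (adjusted p = 0.412), and the inhibitory scaffold Gphn by -0.23 (adjusted p = 0.699).

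In the L1 and contactin families 3 of 6 tested genes fell and 0 rose in limma, with a median of -2.19, against 17.6% and 17.3% of all tested genes. Those that fell were Nfasc (-2.97 ± 0.42, adjusted p = 0.000488), Nrcam (-1.89 ± 0.26, adjusted p = 0.000448) and Cntn1, named after its values were seen (-2.65 ± 0.56, adjusted p = 0.00475). Of 14 genes with a probe set 7 were at background on all activated arrays, 6 on all quiescent arrays and 5 on all arrays of both groups. Among proteases that cut synaptic adhesion proteins 1 of 9 tested genes fell, a share under the 17.6% over all genes. It was Psen2 (-1.998 ± 0.56, adjusted p = 0.0192), also named after its values were seen. The Psen2 call was lost in 5 of 16 alternatives, among them without activated array 2 (adjusted p = 0.0604), activated array 3 (adjusted p = 0.0578) or quiescent array 1 (adjusted p = 0.0648). Adam10, which sheds neuroligins and NCAM, differed by 0.44 (adjusted p = 0.292).

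Splicing factors of neuronal adhesion transcripts had the opposite direction, with 6 of 13 tested genes higher and 0 lower in limma and a median of 1.70. Over all tested genes 17.3% were higher and 17.6% lower. With the probe sets averaged 6 of 12 were higher and 1 lower, and with 1 array left out 5 to 9 were higher and 0 lower. The Rbfox3 call, given above, depended on which of its probe sets was the brightest. Elavl4 read 11.5, 11.2 and 11.4 on activated and 6.98, 9.09 and 6.75 on quiescent arrays, and was 3.76 ± 0.56 higher (adjusted p = 0.000644). Elavl2 was 3.29 ± 0.46 higher (adjusted p = 0.000445) and Nova2, with 1 quiescent array above background, 3.12 ± 0.67 higher (adjusted p = 0.00509). Khdrbs1, or Sam68, which controls alternative splicing of neurexin transcripts, read 13.3, 13.4 and 13.3 on activated and 11.3, 11.9 and 11.8 on quiescent arrays. Khdrbs1 was 1.70 ± 0.25 higher (adjusted p = 0.000646) and was named after its values were seen. Rbfox3 and several Elavl genes are also neuronal markers, and the neuroblast list rose in the same cells.

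**Figure D4:**
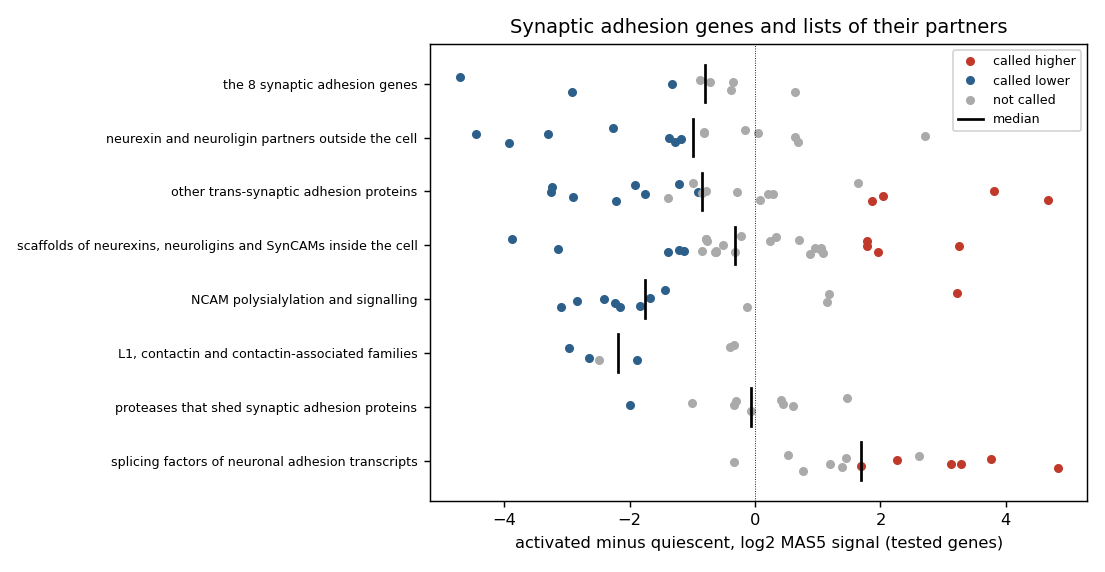
Activated minus quiescent difference (log2 MAS5 signal) of each tested gene, for the 8 synaptic adhesion genes and 7 lists of partner genes. Red points were called higher, blue lower and grey not called at an adjusted p under 0.05, and vertical bars are list medians. The splicing factor list has its median at 1.70 and no gene called lower, and the NCAM polysialylation and signalling list has its median at -1.76.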

How the data were processed

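RNA of 3 activated and 3 quiescent samples was purified with a miRNeasy kit, amplified with a NuGEN Pico kit and labelled with biotin, per the labels' protocols. Deposited were log2 signals, and MAS5 is the tool in the submitters' processing notes. From the values, the linear trimmed mean of each array was close to 499.9. The sources used here give neither the MAS5 version nor detection calls. Scaling to a common mean removes differences in total RNA, and values near background are noisy.

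Groups and replicate numbers came from the sample titles. Tests omitted 64 control probe sets. Of the rest, 34945 had 1 gene, 932 several and 9160 none in the platform annotation, and 0 of those with several named a member. Symbols were updated by Entrez identifier through RefSeq GRCm38.p6 (99.4% found). Genes and probe sets were tested where their mean reached the 40th percentile, 6.02. limma 3.58.1 in R 4.3.3 was run with lmFit, eBayes with a trend, and diffSplice. The fits were tested on simulated data. Figures used matplotlib 3.10.9. Promoter sequences are RefSeq's, and 1 motif searched is not reported here. The design had provided for a pseudocount on linear signals, which log2 values did not need. Where all arrays of a group were at or below background, the fold is a lower bound, with each such signal raised to its background where lower.

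Named were all members, up to 3 called genes per direction of each partner list whose brighter group reached the median of tested genes, up to 2 called genes of each marker list, the sort genes, and exceptions said to be named later. Cadm3, Cadm4, Cask, Gphn, Adam10 and St8sia4 are further exceptions, named after their values were seen. The members and lists were chosen with earlier results of these data known. Alternatives were other probe set rules, filters, scalings, a background floor, a pseudocount of 16, no variance trend, the replicate number as a block, and each array left out in turn. Where the brightest probe set stood for a gene, it was chosen anew in each alternative.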

Additional observations from a re-analysis of the deposited data

How the results depend on the processing

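Cadm1 and Ncam2 were called lower in all 16 alternatives run at the gene level. The number of members called lower was 3, and 2 to 4 with 1 array left out, while those called higher numbered 1 (Nrxn3) with the mean of the probe sets. Reversed signs were Ncam1 at 0.30 and Nlgn3 at 0.26 when scaled to the hybridisation controls, Nlgn2 at 0.18 with the mean of the probe sets, and Nlgn1, at -1.37 to 0.072 with 1 array left out, without quiescent array 3; none of these differences was called. Member probe sets called higher numbered 3 after quantile normalization, 3 when scaled to the hybridisation controls, 1 without a variance trend, 1 with the replicate block, and 0 to 1 with 1 array left out, and those called lower 10 to 13. Scaling to the hybridisation controls moved the median of all tested genes to 0.66, against 0.01 as deposited, and gave 3059 genes called higher and 943 lower, against 2004 and 2040, and 1584 probe sets called lower, against 3689. With 1 array left out the genes called higher numbered 1291 to 2453 and the probe sets called higher 2194 to 4469. Genes with unequal probe sets numbered 177, but 100 after quantile normalization, 17 when scaled to the hybridisation controls, 27 with the replicate block, 0 with the within-array comparison (limma, chosen after seeing simulated data, in which it recovered 0 of 100), and 4 to 810 with 1 array left out. The cause of these changes was not tested. Same-numbered arrays did not deviate together (correlations of -0.02 to 0.06, against -0.08 to 0.05 for other pairs of an activated and a quiescent array). Whether same-numbered samples share animals or a day of sorting cannot be read from this. The replicate block changed no gene-level call of a member. Signal over background limits Ncam2, 1 Nlgn1 probe set, 1 Nlgn2 probe set and 2 Nrxn3 probe sets.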
